A study of Mus musculus with 10 samples.

Results

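A set of 10 genes of the epidermal growth factor (EGF) family and its receptors were followed through RNA sequencing of the mouse mammary gland. They were taken by name, although earlier results of these data were known. They comprise 7 ligands (*Areg*, *Ereg*, *Egf*, *Btc*, *Hbegf*, *Tgfa* and *Nrg1*) and 3 receptors (*Egfr*, *Erbb2* and *Erbb3*), that is 10 of the 55487 genes counted. The study asked how loss of C/EBPβ, a transcription factor encoded by *Cebpb*, from macrophages affects the gland. It compared WT mice, which carried floxed *Cebpb* alleles without Cre (*Csf1r*-Cre neg; *Cebpb* fl/fl), with *Cebpb*ΔM mice (*Csf1r*-iCre; *Cebpb* fl/fl), in which the promoter of *Csf1r* drives Cre in CSF1R-expressing myeloid cells, and the sample labels call this genotype a C/EBPb knockdown. All mice were BALB/c, 10-wk-old females in the diestrus stage of the cycle. Mammary epithelial cells (MECs) were profiled in 2 WT and 2 *Cebpb*ΔM libraries (replicates 1 and 3 of each), in which the deletion was carried by the macrophages of the donor mice and not aimed at the profiled cells. Cells enriched from the gland by F4/80 positive selection, here called macrophage libraries, were profiled in 2 WT libraries (replicates 4 and 5) and 4 *Cebpb*ΔM libraries (replicates 4 to 7).

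EGF family ligands are made as membrane-anchored precursors that proteases such as ADAM17 cut loose, and they bind ErbB receptors, which pair up and signal through the RAS-MAPK and PI3K pathways. EGFR binds amphiregulin (*Areg*), epiregulin (*Ereg*), EGF, betacellulin (*Btc*), HB-EGF (*Hbegf*) and TGFα (*Tgfa*), ERBB3 binds neuregulins such as *Nrg1* and has little kinase activity of its own, and ERBB2 binds no known ligand and acts as a partner of the others. In the mammary gland, amphiregulin is made by hormone-responsive luminal cells under estrogen, and its action through stromal EGFR is needed for ductal growth at puberty.

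The MEC libraries held 25310926 to 27008166 counts and the macrophage libraries 16935000 to 20174722, so that 3 counts, taken as the detection floor, equal 0.111 to 0.119 and 0.149 to 0.177 CPM (counts scaled to library size). These floors cover counting error only, whereas the 95% intervals of fold changes come from the fit and include the spread between libraries. *Cebpb* itself gave few counts everywhere, 25 and 28 in WT and 69 and 42 in *Cebpb*ΔM MECs, 13 and 15 in the WT macrophage libraries, and 16, 13, 5 and 4 in *Cebpb*ΔM macrophage replicates 4, 5, 6 and 7. It shares 908 bases with the oppositely oriented gene *Tmem189*, the genotypes overlapped in the macrophage libraries, and these counts did not check the deletion, so groups are named by their labels. The 10 macrophage markers summed to 32.9 to 43.9 CPM in MECs and 8281 to 16010 CPM in the macrophage libraries. The macrophage libraries were not free of epithelial RNA. The 6 pan-epithelial markers (*Epcam*, *Krt8*, *Krt18*, *Krt19*, *Cdh1* and *Cldn4*) summed to 28190 to 35540 CPM in MECs, to 9282 and 9358 CPM in the WT macrophage libraries, and to 4985 to 6299 CPM in the *Cebpb*ΔM macrophage libraries. In such bulk samples, fewer cells of a type and less RNA per cell cannot be told apart. The 6 fibroblast markers summed to 3239 to 7587 CPM over all 10 libraries, and the 6 T and NK cell markers to at most 5.28 CPM. The labels do not say whether libraries came from separate mice, so p-values measure the spread between these samples, which may be technical.

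Positions are those of the GRCm38 mouse build. *Egf* lies at chr3:129677565-129755316 (minus), *Hbegf* at chr18:36504927-36515805 (minus), *Tgfa* at chr6:86195223-86275719 (plus) and *Nrg1* at chr8:31814551-32884797 (minus). The receptor genes are at chr11:16752203-16918158 (*Egfr*, plus), chr11:98412470-98437716 (*Erbb2*, plus) and chr10:128567523-128589652 (*Erbb3*, minus). The counted exons of *Ereg* and *Tgfa* overlap antisense genes with 236 and 591 counts over all libraries, and *Erbb2* shares 9 bases with *Mien1* on the other strand. Whether the library kit keeps strand is not given in the sources used here, so reads in those overlaps cannot be assigned with certainty.

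A group of 4 genes of the family lies together on chromosome 5, within 375.5 kb that hold 7 annotated genes. In order these are *Epgn* (epigen, a further EGFR ligand), *Ereg* (chr5:91074622-91093646, plus strand), *Areg* (chr5:91139599-91148432, plus strand) and *Btc* (chr5:91357261-91402994, minus strand). The gaps between neighbours are 39.4, 46 and 209 kb.

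*Areg* and *Btc*, the pair of ligands whose levels differed most between the genotypes in the macrophage libraries among those well above the detection floor, are shown with the 250 bases upstream of their start, from RefSeq promoter sequences of GRCm38.p6. Capitals mark the cAMP response element core TGACG on either strand and, in *Areg*, the full palindromic element TGACGTCA, which contains 2 overlapping cores.
Areg (chr5:91139349-91139598, plus strand): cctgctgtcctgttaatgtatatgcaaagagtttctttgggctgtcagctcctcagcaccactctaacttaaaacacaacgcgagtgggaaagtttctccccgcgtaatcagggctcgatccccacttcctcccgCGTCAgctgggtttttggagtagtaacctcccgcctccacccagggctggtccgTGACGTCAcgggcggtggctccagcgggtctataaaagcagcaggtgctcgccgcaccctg
Btc (chr5:91402995-91403244, minus strand): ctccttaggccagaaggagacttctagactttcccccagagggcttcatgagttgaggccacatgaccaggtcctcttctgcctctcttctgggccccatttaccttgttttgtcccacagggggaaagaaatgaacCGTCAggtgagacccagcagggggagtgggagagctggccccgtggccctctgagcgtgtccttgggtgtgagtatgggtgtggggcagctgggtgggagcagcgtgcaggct
The full element begins 61 bases upstream of the *Areg* start and is found in 1.55% of the 32851 promoter windows of this length. The core, found in 17.8% of windows, occurs again 115 bases upstream of *Areg*, and once in *Btc*, 113 bases upstream. The C/EBP core TTGCNNAA, present in 9.56% of windows, was not matched in either window. Among the other members, that core was matched 71 bases upstream in 1 of the 2 *Egf* promoters, and the TGACG core 171 bases upstream of *Erbb2*. Of the 10 genes, 6 had a promoter entry, and *Ereg*, *Hbegf*, *Nrg1* and *Erbb3* had none. These are matches of letters in a window and not binding sites.

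**Figure D1:**
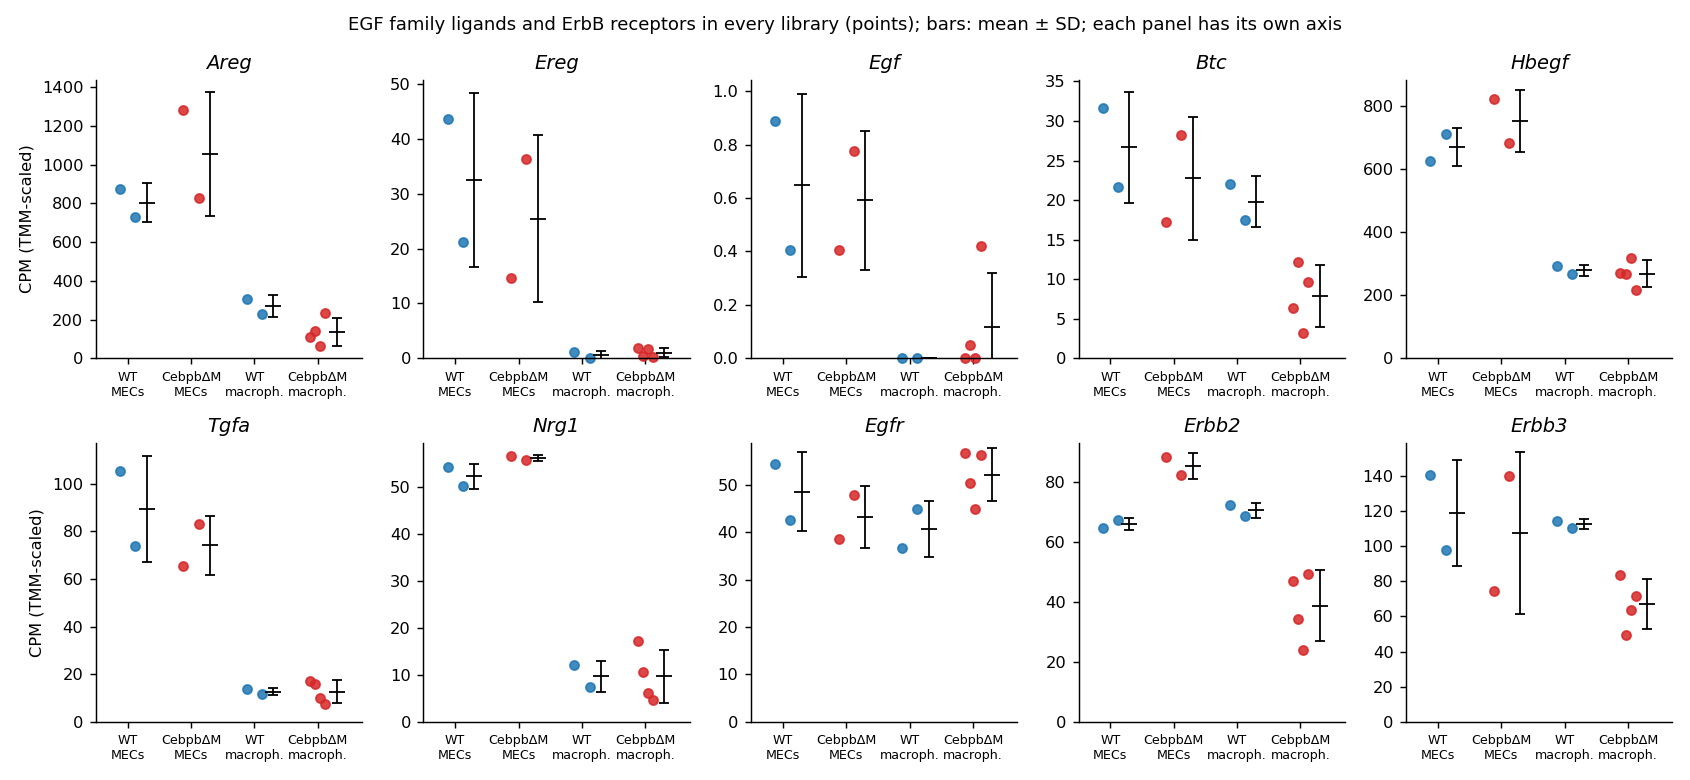
Level of each gene in every library as CPM with TMM scaling over all 10 libraries, on linear axes from 0 that differ between panels. Points are libraries (blue, WT; red, CebpbΔM; "macroph.", macrophage libraries), and bars give the mean and SD of each group. Areg lies between 732 and 1280 CPM in MECs and between 65.0 and 309 CPM in the macrophage libraries, whereas Egfr covers nearly the same range in both.

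*Areg*, which encodes amphiregulin, had the highest mean level per kb of exon of the 7 ligands in every group. In CPM it stood at 876 and 732 CPM in WT MECs and at 1280 and 830 CPM in *Cebpb*ΔM MECs (replicates 1 and 3). It stood at 309 and 231 CPM in WT macrophage replicates 4 and 5, and at 108, 140, 65.0 and 233 CPM in *Cebpb*ΔM macrophage replicates 4, 5, 6 and 7. All macrophage libraries were below all MEC libraries, and *Cebpb*ΔM replicate 7 reached the lower WT macrophage library while the other 3 did not.

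*Hbegf* encodes heparin-binding EGF-like growth factor. Its levels were 626 and 711 CPM in WT MECs, 822 and 681 CPM in *Cebpb*ΔM MECs, 292 and 267 CPM in WT macrophage libraries, and 269, 268, 319 and 217 CPM in *Cebpb*ΔM macrophage libraries. The genotypes overlapped in both cell preparations, and the preparations did not.

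*Tgfa* and *Nrg1* followed the same division. *Tgfa* ranged from 65.2 to 105 CPM over the 4 MEC libraries and from 7.38 to 17.1 CPM over the 6 macrophage libraries. *Nrg1* ranged from 50.4 to 56.6 CPM and from 4.68 to 17.3 CPM. Among the *Cebpb*ΔM macrophage libraries both were highest in replicate 4 and lowest in replicate 7, with the WT libraries in between.

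*Btc* encodes betacellulin. It stood at 31.6 and 21.7 CPM in WT MECs, 17.3 and 28.2 CPM in *Cebpb*ΔM MECs, 22.1 and 17.5 CPM in WT macrophage libraries, and 6.41, 12.2, 3.20 and 9.66 CPM in *Cebpb*ΔM macrophage libraries. Thus WT macrophage libraries overlapped MECs, and *Cebpb*ΔM macrophage libraries lay below both.

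*Ereg* was scarce in the macrophage libraries and *Egf* in both preparations. *Ereg* gave 43.7 and 21.2 CPM in WT MECs and 14.7 and 36.2 CPM in *Cebpb*ΔM MECs, but only 23 and 0 counts in the WT macrophage libraries and 38, 8, 31 and 4 counts in the *Cebpb*ΔM ones. *Egf* gave 10 to 22 counts in each MEC library, 0 in both WT macrophage libraries, and 0, 1, 0 and 7 counts in *Cebpb*ΔM macrophage replicates 4 to 7. It failed the filter of over 1 CPM in 2 libraries in every comparison and was the single gene of the 10 not tested.

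The receptors were less unequal. *Egfr* stood at 54.5 and 42.7 CPM in WT MECs, 38.6 and 47.9 CPM in *Cebpb*ΔM MECs, 36.6 and 44.9 CPM in WT macrophage libraries, and 56.7, 50.4, 44.9 and 56.3 CPM in *Cebpb*ΔM macrophage libraries. Both preparations thus covered nearly the same range.

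*Erbb2* stood at 64.6 and 67.5 CPM in WT MECs, 88.6 and 82.4 CPM in *Cebpb*ΔM MECs, 72.3 and 68.9 CPM in WT macrophage libraries, and 47.1, 34.3, 23.9 and 49.5 CPM in *Cebpb*ΔM macrophage libraries. The *Cebpb*ΔM libraries were above WT in MECs and below WT in macrophages, without overlap in either. *Erbb3* stood at 140 and 97.7 CPM in WT MECs, 74.7 and 140 CPM in *Cebpb*ΔM MECs, 115 and 111 CPM in WT macrophage libraries, and 83.4, 49.7, 63.7 and 71.9 CPM in *Cebpb*ΔM macrophage libraries. Here the genotypes were apart in macrophages and overlapped in MECs.

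Between genes, levels were compared as CPM per kb of counted exon. In WT MECs the order began with *Areg* at 662 ± 83.7, *Hbegf* at 138 ± 12.4 and *Erbb3* at 19.8 ± 5.03 CPM per kb (SD, n = 2). *Tgfa* (13.8 CPM per kb) and *Erbb2* (12.7) followed and overlapped each other, then *Ereg* (7.86), *Btc* (5.90) and *Egfr* (4.29), which overlapped their neighbours in that order, and *Nrg1* (3.39) and *Egf* (0.0574). The same 3 genes led in WT macrophage libraries, at 222 ± 45.4, 57.8 ± 3.62 and 18.7 ± 0.474 CPM per kb, and in *Cebpb*ΔM macrophage libraries, at 112 ± 58.6, 55.5 ± 8.62 and 11.2 ± 2.36 CPM per kb (n = 4). In the latter *Areg* overlapped *Hbegf*, since replicate 6 had more *Hbegf* (66.0 CPM per kb) than *Areg* (53.5). *Areg* made up 77.8 to 84.6% of the summed ligand level per kb in MECs, 75.6 and 78.8% in WT macrophage libraries and 43.6 to 79.8% in *Cebpb*ΔM macrophage libraries. *Ereg* fell from the sixth place in MECs to the ninth in macrophage libraries of both genotypes.

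The 6 tested ligands were all estimated lower in macrophage libraries than in MECs, in both genotypes, which the receptors were not. With edgeR's quasi-likelihood test and Benjamini-Hochberg adjustment over all genes, 5 of the 9 tested genes were lower in WT macrophage libraries and 0 higher, where 28.1% of 18323 genes were called, 12.1% as lower and 16% as higher. *Tgfa* was 7.12-fold lower (log2 fold change -2.83, SE 0.36, adjusted p = 0.000143) and *Nrg1* 5.41-fold lower (log2 fold change -2.43, SE 0.46, adjusted p = 0.00206). *Areg* was 2.98-fold lower (log2 fold change -1.57, SE 0.45, adjusted p = 0.0215) and *Hbegf* 2.39-fold lower (log2 fold change -1.26, SE 0.21, adjusted p = 0.00109). For *Ereg* the fitted log2 fold change was -5.84 (adjusted p = 0.00042), a size that rests on the 23 and 0 counts given above. *Btc* (log2 fold change -0.43, 95% interval -1.38 to 0.51), *Egfr* (-0.25, -0.74 to 0.24), *Erbb2* (0.10, -0.52 to 0.72) and *Erbb3* (-0.08, -0.76 to 0.59) did not pass. The call for *Areg* was lost when any 1 of the 4 WT libraries was left out (adjusted p up to 0.148, log2 fold change -1.75 to -1.33).

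In the *Cebpb*ΔM mice, compared through other libraries, 7 of 9 genes passed as lower in macrophage libraries and 0 as higher. Of all genes 36.8% were called, 16.3% as lower and 20.5% as higher. All 6 tested ligands passed. *Areg* was 7.73-fold lower (log2 fold change -2.95, SE 0.37, adjusted p = 7.34e-05), *Btc* 2.88-fold lower (-1.53, SE 0.39, adjusted p = 0.0085) and *Hbegf* 2.80-fold lower (-1.48, SE 0.18, adjusted p = 4.71e-05). The log2 fold changes of *Ereg*, *Tgfa* and *Nrg1* were -4.56, -2.54 and -2.52. Of the receptors, *Erbb2* was 2.21-fold lower (log2 fold change -1.14, SE 0.24, adjusted p = 0.00288), *Erbb3* had a log2 fold change of -0.68 (adjusted p = 0.0629) and *Egfr* one of 0.27 (adjusted p = 0.305). The *Btc* call was lost without *Cebpb*ΔM MEC replicate 3 (adjusted p = 0.112), and *Erbb3* passed without *Cebpb*ΔM MEC replicate 1 (0.0187) or *Cebpb*ΔM macrophage replicate 4 (0.0352). Cell type cannot be told apart from isolation method or count table, and the median log2 fold change of all genes between preparations in WT moved from 0.06 with TMM scaling to 0.24 with library totals.

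**Figure D2:**
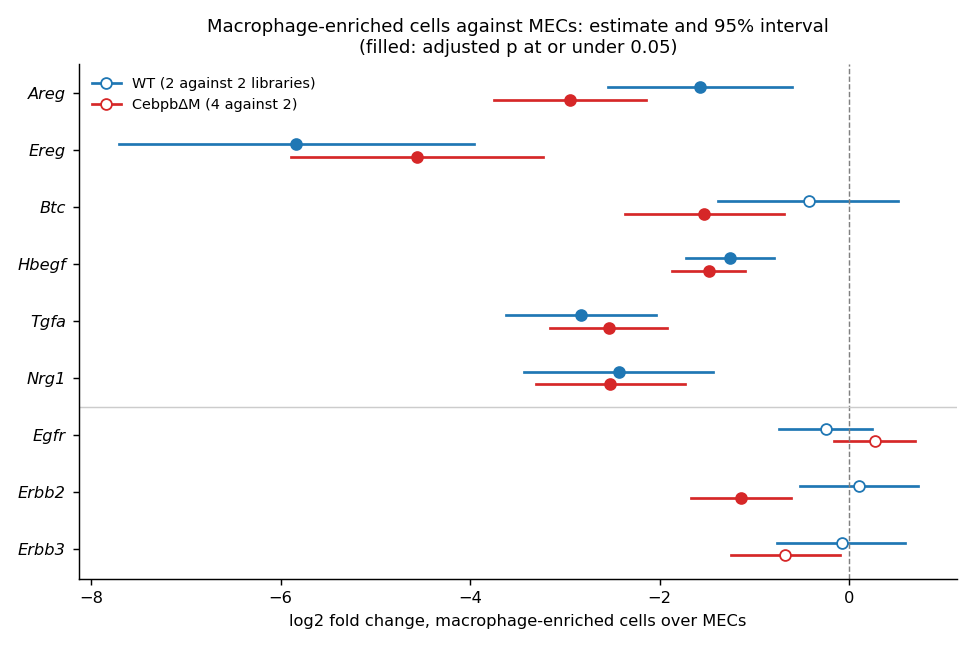
Log2 fold change of macrophage libraries over MECs for the 9 tested genes, with 95% intervals, in WT (blue) and CebpbΔM mice (red), ligands above the grey line and receptors below it. Filled points have an adjusted p at or under 0.05. The 6 ligand estimates all lie below 0, whereas the receptor estimates run from -1.14 to 0.27.

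Since epithelial RNA was present in the macrophage libraries, each level was also set against the pan-epithelial sum of its own library. *Areg* came to 20.6 to 37.0 CPM per 1000 CPM of pan-epithelial markers in MECs, 24.7 and 33.3 in WT macrophage libraries and 13.1 to 37.0 in *Cebpb*ΔM macrophage libraries, so all 3 ranges overlapped. *Tgfa* (1.89 to 3.74 in MECs, 1.17 to 3.14 in macrophage libraries) and *Nrg1* (1.42 to 1.96, and 0.743 to 2.91) overlapped likewise. *Ereg* remained lower, at 0.424 to 1.55 in MECs and 0 to 0.337 in macrophage libraries. *Hbegf* was higher in every macrophage library (28.5 to 64.0) than in any MEC library (20.0 to 23.9). All 3 receptors were also higher on this scale, *Egfr* at 3.94 to 9.86 against 1.12 to 1.93, *Erbb2* at 4.81 to 7.92 against 1.90 to 2.89, and *Erbb3* at 9.72 to 14.0 against 2.16 to 4.98. The divisor was 28190 to 35540 CPM in MECs and 4985 to 9358 CPM in macrophage libraries. A gene with similar CPM in both preparations therefore comes out higher on this scale. The share of all genes that do so was not computed. The part of epithelial cells in the macrophage values was not tested.

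In MECs, the question was whether epithelial cells next to *Cebpb*-deficient macrophages change their growth factor genes. None of the 9 tested genes passed, where 0.051% of 15698 genes were called (8 genes), and none had an unadjusted p under 0.05, where 5.54% of all genes did. The largest estimates were *Areg* at a log2 fold change of 0.41 (95% interval -0.15 to 0.97) and *Erbb2* at 0.39 (-0.05 to 0.83), and every adjusted p was 1. *Erbb2* and *Nrg1* were higher in both *Cebpb*ΔM libraries than in both WT libraries, a pattern 13.6% of all genes showed. The intervals of *Hbegf* (-0.30 to 0.68), *Tgfa* (-0.77 to 0.28), *Nrg1* (-0.33 to 0.58), *Egfr* (-0.65 to 0.37), *Btc* (-0.85 to 0.45) and *Erbb3* (-0.77 to 0.54) kept within a log2 change of 1 in either direction, and that of *Ereg* did not (-1.22 to 0.59).

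A different division ran through the MEC libraries. *Ereg*, *Egf*, *Btc*, *Tgfa*, *Egfr* and *Erbb3*, 6 of the 10 genes, were higher in WT replicate 1 and *Cebpb*ΔM replicate 3 than in WT replicate 3 and *Cebpb*ΔM replicate 1. This was true of 14.9% of tested genes, to which *Egf* does not belong. The division was not a planned comparison, and that share does not allow for its choice. *Hbegf* had the opposite order, as had 16.8% of genes. The pan-epithelial sum was 28190 and 28540 CPM in the first 2 of these libraries and 35540 and 34580 CPM in the others, and the 8 luminal progenitor and alveolar markers summed to 2005 and 1271 against 2676 and 3243 CPM. The part of these differences between libraries was not tested, and leaving out *Cebpb*ΔM replicate 1 or WT replicate 1 turned the direction of *Ereg*, *Btc*, *Egfr* and *Erbb3* (log2 fold changes 0.02 to 0.28), and without WT replicate 1 that of *Tgfa* also turned (0.02).

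**Figure D3:**
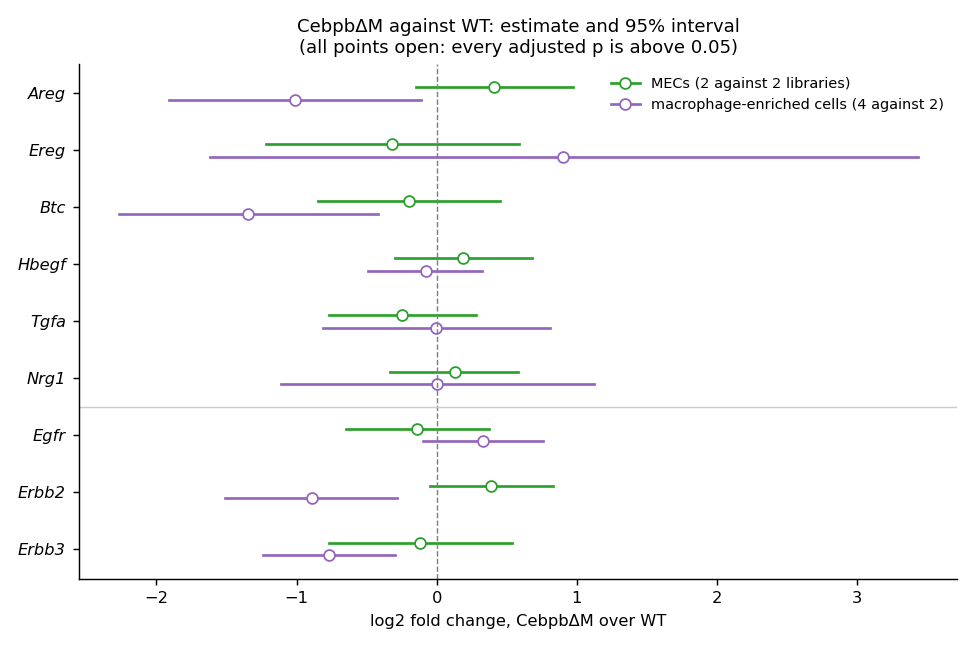
Log2 fold change of CebpbΔM over WT for the 9 tested genes in MECs (green, 2 against 2 libraries) and in macrophage libraries (purple, 4 against 2), with 95% intervals from the quasi-likelihood fit, ligands above the grey line. All points are open because no adjusted p reached 0.05. The macrophage intervals of Areg, Btc, Erbb2 and Erbb3 lie below 0.

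In the macrophage libraries, 4 genes had lower estimates in *Cebpb*ΔM with unadjusted p under 0.05, and 0 of 9 passed the adjustment, where 0% of 17772 genes were called and 9.76% had an unadjusted p under 0.05. By edgeR's quasi-likelihood test, *Btc* had a log2 fold change of -1.35 (SE 0.41, unadjusted p = 0.0092, adjusted p = 0.432) and *Areg* one of -1.01 (SE 0.40, unadjusted p = 0.0323, adjusted p = 0.482). By the same edgeR fit *Erbb2* had a log2 fold change of -0.89 (SE 0.27, unadjusted p = 0.00939, adjusted p = 0.432) and *Erbb3* one of -0.77 (SE 0.21, unadjusted p = 0.005, adjusted p = 0.417). *Btc*, *Erbb2* and *Erbb3* were lower in 4 of 4 *Cebpb*ΔM libraries than in either WT library, as were 8.1% of all genes, and *Areg* in 3 of 4 (with library totals in 4 of 4, at 62.9 to 230 against 241 and 335 CPM). The estimates of 3 other ligands were smaller, *Hbegf* -0.08 (95% interval -0.49 to 0.32), *Tgfa* -0.0018 (-0.81 to 0.81) and *Nrg1* 0.0024 (-1.11 to 1.12). *Egfr* had an estimate of 0.33 (-0.10 to 0.76) and *Ereg*, at its low counts, one of 0.90 (-1.62 to 3.43). All 4 *Cebpb*ΔM libraries were above WT for *Egfr*, as for 10.4% of all genes, but replicate 6 and WT replicate 5 were both at 44.9 CPM when rounded, and with library totals they overlapped (43.5 and 46.9 CPM). A likelihood ratio test called 138 genes and DESeq2 201, with 0 of these 9 genes among them.

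The pan-epithelial sum differed between the genotypes in the same direction as these 4 genes. Within *Cebpb*ΔM its order of libraries was that of *Erbb2*, but not that of *Areg*, *Btc* or *Erbb3*. The sum was lower in 4 of 4 *Cebpb*ΔM libraries, and 6 of its 6 markers had lower estimates (median log2 fold change -0.71, 0 called). The estimates were uneven. *Krt8* (-0.89), *Krt18* (-0.82) and *Krt19* (-0.79) did not overlap between the genotypes, while *Cldn4* (-0.62), *Cdh1* (-0.20) and *Epcam* (-0.11) did. None of the 6 was at or under 3 counts in any library. The 10 macrophage markers all had higher estimates (median 0.60, 0 called), with sums of 10790 to 16010 CPM in *Cebpb*ΔM against 8281 and 9365 CPM in WT. The 8 basal markers also all had higher estimates (median 1.09, 0 called), with sums of 756 to 3252 against 821 and 1277 CPM. Of the 7 hormone-sensing luminal markers 6 had lower estimates (median -0.54, 0 called), with sums of 780 to 2071 against 1829 and 2139 CPM. The 6 fibroblast markers all had lower estimates (median -0.32, 0 called), with sums of 3239 to 7587 against 6961 and 6540 CPM. Of the 7 tested luminal progenitor and alveolar markers, 5 had higher and 2 lower estimates (median 0.19, 0 called). With the mean pan-epithelial level as a covariate, chosen after seeing the data, the log2 fold changes were 0.01 for *Erbb2*, -0.20 for *Erbb3*, -0.28 for *Areg* and -1 for *Btc* (adjusted p 0.745 to 0.997). The other estimates moved away from 0 in that fit, to 1.66 for *Nrg1*, 0.68 for *Tgfa*, 0.52 for *Egfr*, 2.62 for *Ereg* and -0.24 for *Hbegf* (adjusted p 0.469 to 0.847). Since the pan-epithelial sum did not overlap between the genotypes, that fit could hardly tell genotype from marker level. Per 1000 CPM of pan-epithelial markers, *Erbb3* stood at 9.72 to 14.0 in *Cebpb*ΔM and 11.8 and 12.3 in WT macrophage libraries, and *Erbb2* at 4.81 to 7.92 and 7.36 and 7.79, so the genotypes overlapped. On that scale *Egfr* did not overlap (8.94 to 9.86 against 3.94 and 4.80), nor did *Hbegf* (34.5 to 64.0 against 28.5 and 31.4). The divisor was itself lower in every *Cebpb*ΔM library (4985 to 6299 against 9282 and 9358 CPM). A gene of even CPM therefore rises on that scale, and the share of all genes that separate on it was not computed. The part of epithelial content in these differences was not tested further. A fit of *Cebpb*ΔM replicates 4 and 5 alone against the same WT libraries was also added after seeing the data. Its log2 fold changes were -1.13 for *Areg*, -1.09 for *Btc*, -0.81 for *Erbb2* and -0.77 for *Erbb3* (adjusted p 0.202 to 0.444 by edgeR).

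**Figure D4:**
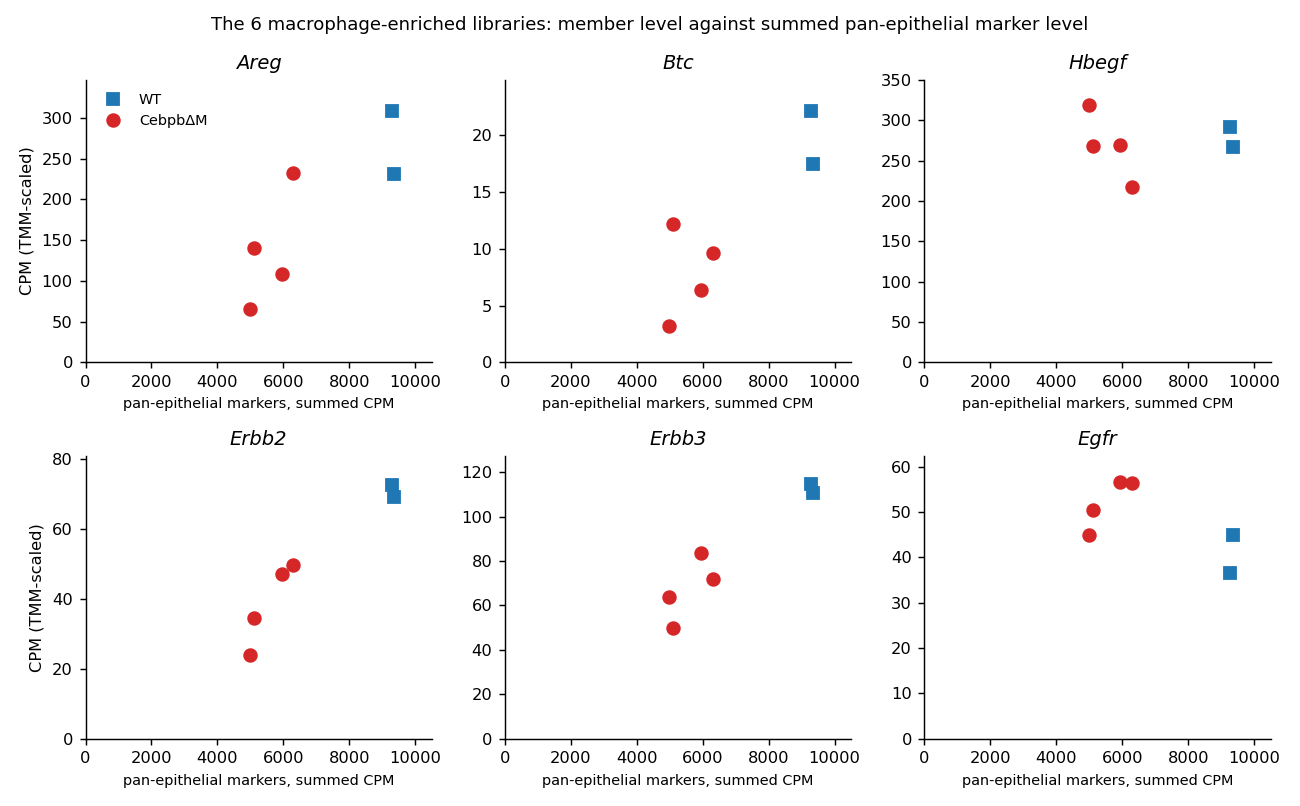
Level of 6 genes (CPM, TMM-scaled, linear axes from 0) against the summed level of 6 pan-epithelial markers in each of the 6 macrophage libraries. Blue squares are WT libraries, at 9282 and 9358 CPM of markers, and red circles CebpbΔM libraries, between 4985 and 6299 CPM. Erbb2 and Erbb3 are higher in both WT libraries than in any CebpbΔM library, whereas Hbegf overlaps.

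An interaction term, fitted to the 10 libraries together, compared the genotype difference in macrophage libraries with that in MECs. None of the 9 genes passed, where 0% of 18323 genes were called and 5.25% had an unadjusted p under 0.05. *Erbb2*, higher in *Cebpb*ΔM MECs and lower in *Cebpb*ΔM macrophage libraries, had an interaction of -1.24 on the log2 scale (SE 0.37, unadjusted p = 0.00631, adjusted p = 0.94 by edgeR). *Areg* had one of -1.38 (SE 0.58, unadjusted p = 0.0349, adjusted p = 0.94 by edgeR). The interval of the *Hbegf* interaction was -0.83 to 0.38, and that of *Egfr* -0.13 to 1.17.

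Beyond these 10 genes, 57 others of the pathway were listed, from ligands to genes induced by EGFR signalling, and 55 were tested. In neither genotype comparison nor the interaction did any pass (smallest adjusted p 0.132, 0.417 and 0.94), and the median log2 fold change of the list was -0.03 in MECs and in macrophage libraries, against -0.01 and 0.00 for all genes. In MECs, 27 of the 55 estimates were higher and 28 lower in *Cebpb*ΔM. An unadjusted p under 0.05 was found for 5.54% of all genes and for 5 of the 55. Of these, *Map2k2*, a MAPK kinase, stood at 76.4 and 101 CPM in WT and 208 and 158 CPM in *Cebpb*ΔM MECs (log2 fold change 1.06, adjusted p = 0.132 by edgeR). *Etv4*, a transcription factor induced by RAS-MAPK signalling, had an estimate of 1.01 (adjusted p = 0.326), and *Dusp5*, a phosphatase that inactivates ERK, one of 0.64 (adjusted p = 0.423). Neither overlapped between genotypes, and 13.6% of all genes were likewise higher in *Cebpb*ΔM without overlap. *Dusp5* was also higher without overlap in *Cebpb*ΔM macrophage libraries (log2 fold change 0.76, adjusted p = 0.494 by edgeR). The remaining genes with the smallest p of their role were *Rhbdf2* (-0.26), which assists ADAM17, *Erbb4* (-0.25) and *Epgn* (-0.05), each with an adjusted p of 1.

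In macrophage libraries, where 9.76% of all genes had an unadjusted p under 0.05, 5 of 55 also did. *Lrig2*, of a family of transmembrane proteins that modulate ErbB receptors, stood at 9.71 and 12.4 CPM in WT and 22.5 to 24.8 CPM in *Cebpb*ΔM libraries (log2 fold change 1.06, adjusted p = 0.417 by edgeR). *Adam10*, a protease that releases betacellulin and EGF, had an estimate of -0.57 (adjusted p = 0.424) and *Grb2*, the adaptor between receptors and RAS, one of 0.47 (adjusted p = 0.466), neither with overlap. Of all genes, 8.1% were lower and 10.4% higher in *Cebpb*ΔM macrophage libraries without overlap. *Erbb4*, the fourth receptor, gave 17 and 0 counts in WT and 72, 43, 25 and 7 in *Cebpb*ΔM libraries (log2 fold change 2.18, 95% interval -0.29 to 4.65). *Epgn* gave 70 and 53 counts in WT and 19, 48, 0 and 37 in *Cebpb*ΔM libraries (-1.14, -2.75 to 0.47). *Ier3*, an early response gene, had an estimate of 0.34 (adjusted p = 0.659).

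**Figure D5:**
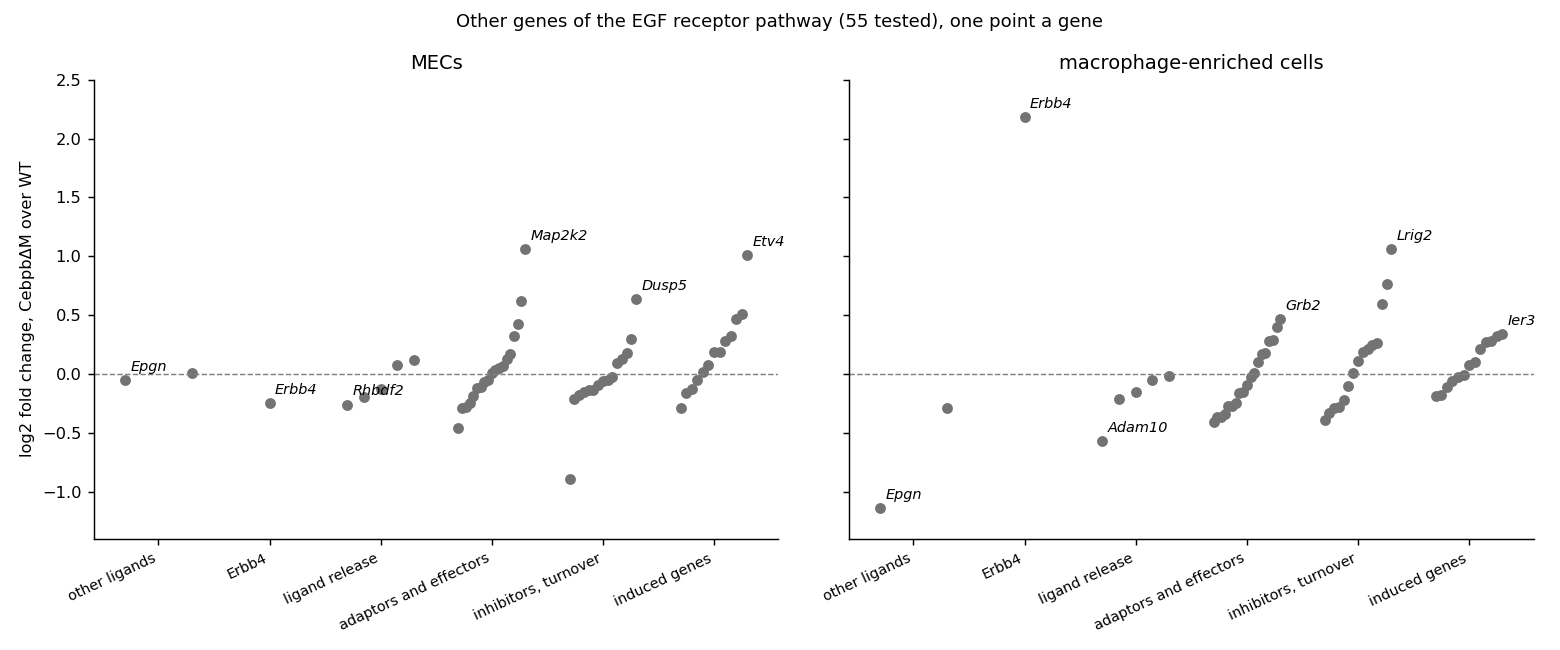
Log2 fold change of CebpbΔM over WT for the 55 tested other genes of the pathway, one point a gene, ordered within each role, in MECs (left) and macrophage libraries (right). The gene with the smallest p of each role is named. Estimates run from -0.89 to 1.06 in MECs and from -1.14 to 2.18 in macrophage libraries, and none passed the adjusted threshold.

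Between preparations, 7 of the 55 genes passed as higher and 14 as lower in WT macrophage libraries, where 16% and 12.1% of all genes did. In *Cebpb*ΔM, 8 passed as higher and 15 as lower, where 20.5% and 16.3% of all genes did. Of the 55 estimates, 23 were higher and 32 lower in each genotype. *Epgn*, the neighbour of *Ereg*, stood at 50.4 to 57.6 CPM in MECs and at 0 to 3.51 CPM in macrophage libraries (log2 fold change -4.17 in WT and -5.21 in *Cebpb*ΔM, adjusted p = 8.65e-05 and 2.7e-06 by edgeR). The 4 genes of the chromosome 5 group had unequal estimates in WT, with *Epgn* 17.9-fold and *Areg* 2.98-fold lower in macrophage libraries and *Btc* not passing. The *Ereg* estimate, resting on 23 and 0 counts, ran from -12.45 to -4.76 on the log2 scale when 1 library was left out, and the differences between these genes were not tested. Of the 5 genes for ligand release, *Adam17* was higher in macrophage libraries (log2 fold change 0.96 in WT, 1.12 in *Cebpb*ΔM), and *Rhbdf1* (-0.78 and -1.01), *Rhbdf2* (-1.35 and -1.09) and *Rhbdl2* (-1.41 and -1.37) were lower.

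The genes whose log2 levels followed each member most closely over all 10 libraries are given with Pearson r, as a description over libraries that share preparation and depth. They were *Serinc2* (r = 0.988) and *Hsd17b12* (0.987) for *Areg*, *Lmna* (0.992) and *Ets2* (0.988) for *Hbegf*, *Dusp4* (0.991) and *Cdh1* (0.987) for *Tgfa*, and *Fam102a* (0.991) and *Perp* (0.990) for *Nrg1*. For *Ereg* they were *Gm5297* (0.983) and *Gm6155* (0.974), for *Btc* *Cldn6* (0.969) and *Nkain4* (0.966), for *Egfr* *Xrcc2* (0.931) and *Fam120c* (0.880), for *Erbb2* *Wdr73* (0.965) and *Ppifos* (0.964), and for *Erbb3* *Wipf2* (0.924) and *Ptprf* (0.921). Over the 6 macrophage libraries alone, the 2 nearest of 17771 genes had r of 0.978 to 0.997 for each of the 9 tested members, among them *Yif1a* (0.997) and *Ercc6l* (0.992) for *Areg*. These are the highest of very many r over few libraries. Whether they exceed what any gene would reach was not tested.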

How the data were processed

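The authors sent RNA to BGI, and libraries of the low input Smart-Seq type were sequenced on the DNB-seq platform. Reads were trimmed with Trimmomatic and aligned to GRCm38 with HISAT2. Per the file headers, genes were counted with featureCounts 1.6.2 on Ensembl annotation 100, with the reverse-strand setting and a mapping quality of at least 10. The deposited values are raw counts, one table for MECs and one for macrophage libraries. Columns of further MEC libraries named in a header were not analysed here.

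Groups followed the sample labels. Genes of at least 300 nt with over 1 CPM in at least 2 libraries of a fit were tested with edgeR 4.0.16 (R 4.3.3), with TMM scaling, glmQLFit and glmQLFTest, and Benjamini-Hochberg adjustment over all tested genes at 0.05. This replaced the likelihood ratio test named by the study, which was an alternative. Each genotype comparison used its own libraries. The interaction and the comparisons of preparations used all 10. SEs were derived from the F statistic, and CPM in the text carries TMM factors over 10 libraries. Alternatives were DESeq2 1.42.0, the older quasi-likelihood form, RLE scaling, library totals, other filters, a replicate block, leaving out each library and, added after seeing the data, a pan-epithelial covariate and macrophage replicates 4 and 5 alone. Scripts were tested on simulated data in which 200 genes were changed by 2 on the log2 scale. Of these, 92% were recovered in the MEC and 66% in the macrophage genotype comparison, with 8.46% and 8.97% false. Changes can therefore be missed, more so in macrophage libraries. Totals limit precision at low counts, as given for *Ereg* and *Egf*.

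All 10 members are named in every comparison, and of the pathway list those passing a genotype test and the smallest p of each role. For each of the 9 tested members, the 2 genes of highest correlation over all libraries are named. The members and lists were chosen with earlier results of these data known. Symbols were found for 55141 of 55487 genes. Promoters came from RefSeq (GRCm38.p6). Figures used matplotlib 3.10.9.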

Additional observations from a re-analysis of the deposited data

Results flagged for a closer look

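*Egf* in the 4 *Cebpb*ΔM macrophage libraries was flagged because 1 library stood apart from the others. Replicate 7 gave 0.420 CPM (7 counts), while replicates 4, 5 and 6 gave 0, 1 and 0 counts. The gap to the nearest library was 0.884 of the group's range. The 10 genes were examined in this group. A chance rate of about 1 in 20 groups assumes normally distributed values, which counts this near 0 are not.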

How the results depend on the processing

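Over all alternatives, 0 of the 9 tested members passed in either genotype comparison or the interaction, and the members lower in macrophage libraries numbered 4 to 5 in WT and 6 to 8 in *Cebpb*ΔM when 1 library was left out. Counts over all genes moved more. In MECs, 8 genes passed, against 179 with the likelihood ratio test, 161 with DESeq2, 5 with filterByExpr, 0 with library totals, with no filter or with all 10 libraries in one fit, and 5 to 354 without 1 library (47 and 354 without *Cebpb*ΔM replicates 1 and 3, 98 and 5 without WT replicates 1 and 3). In macrophage libraries 0 passed, against 138 (likelihood ratio), 201 (DESeq2) and 1 with replicates 4 and 5 alone. For the interaction 0 passed, against 53, 27, and 0 to 2 without 1 library (2 without WT macrophage replicate 5). Without 1 library, 2748 to 5383 genes passed between preparations in WT (5151 in all; lowest without WT MEC replicate 3, then 2953 and 3306 without WT MEC replicate 1 and WT macrophage replicate 5) and 3916 to 7058 in *Cebpb*ΔM (6743 in all; lowest without *Cebpb*ΔM MEC replicate 1).

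With the replicate number as a block, 229 genes passed in MECs, 89 in macrophage libraries and 4 in the interaction, with 0 members. Deviations of same-numbered libraries correlated at 0.105 in MECs and at 0.127 and -0.086 in macrophage libraries, so the pairing rests on a number alone.

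Several estimates changed sign. In macrophage libraries, *Erbb2* went from -0.89 to 0.01 with the pan-epithelial covariate, *Nrg1* became -0.02 (likelihood ratio, older quasi-likelihood and library totals) and -0.01 (DESeq2), and *Tgfa* became 0.00034 (RLE), 0.00083 (filterByExpr), 0.0012 (no filter), 0.38 (replicate block), 0.02 (all 10 libraries), 0.68 (pan-epithelial covariate) and 0.39 (replicates 4 and 5). The *Nrg1* interaction became 0.43 with the block, and *Erbb3* between preparations in WT 0.10 with library totals. Without 1 library, log2 fold changes in MECs spanned -1.15 to 0.28 for *Ereg*, -0.63 to 0.13 for *Btc*, -0.46 to 0.02 for *Tgfa*, -0.34 to 0.03 for *Egfr* and -0.68 to 0.28 for *Erbb3*. In macrophage libraries they spanned -0.43 to 0.39 for *Nrg1*, -0.18 to 0.17 for *Tgfa*, -0.17 to 0.0016 for *Hbegf* and -0.12 to 7.37 for *Ereg*, where the last leaves 1 WT library at 0 counts and is no bound. The *Nrg1* interaction spanned -0.54 to 0.28, and *Erbb3* between preparations in WT -0.32 to 0.20. *Erbb3* between preparations in *Cebpb*ΔM passed with DESeq2 (adjusted p = 0.0381) and RLE (0.0483). The cause of these changes was not tested.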
